A study of Homo sapiens with 8 samples.

Results

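Clustered histone genes encode the linker histone H1 and the core histones H2A, H2B, H3 and H4, and most of them lie close together in a few blocks of the genome. They were taken here as the protein-coding genes of GENCODE release 44 whose symbol begins with H1-, H2AC, H2BC, H3C or H4C, and 73 genes are described: 9 of H1, 17 of H2A, 19 of H2B, 13 of H3 and 15 of H4. Of these, 71 had a row among the 60624 genes counted, and 36 had enough counts to be tested among 18661 genes. The rule used only the symbol and no measured value. By position on GRCh38, 55 of the genes lie in the block at 6p22, 11 at 1q21, a pair at 1q42 and 5 elsewhere (H1-7, H1-8, H1-10, H2BC12L and H4C16).

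The RNA came from A549, an established human lung adenocarcinoma cell line, in 4 groups: untreated cells, cells given indisulam, cells given SPHINX31, and cells given the combination of both. Indisulam leads to degradation of the splicing factor RBM39, and SPHINX31 inhibits the kinase SRPK1, which phosphorylates splicing factors of the SR family. The study's methods give a treatment of 24 h with indisulam at 0.5 μM and SPHINX31 at 5 μM, whereas the labels of the libraries give 18 h and 2 μM for indisulam. Each group had 2 libraries, which were technical replicates. Every p-value and confidence interval below therefore measures the spread between libraries and not between independent treatments. RNA was selected by its poly(A) tail, sequenced as paired reads of 150 bases, and counted once per gene. Because these are bulk libraries, fewer cells that express a gene and less RNA per cell cannot be told apart.

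Most core histone genes and several H1 genes are replication-dependent: they are transcribed in S phase, when new DNA has to be packaged. Their mRNAs are unusual in that they end in a short stem-loop, which is bound by the protein SLBP, in place of a poly(A) tail. H1-10 is an exception that is made outside S phase as an ordinary polyadenylated mRNA. A histone gene can also give a longer, polyadenylated transcript that runs past its stem-loop. In poly(A) libraries the counts therefore report tailed histone transcripts and whatever untailed RNA escaped the selection, and these were not separated here.

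The stem-loop is shown because it divides the genes. It was searched within 150 bases after the stop codon as 16 bases with a stem of 6 pairs (GGNNNTNNTNANNNCC, sense strand only, with G-T pairs allowed in the stem). It was found in 69 of the 73 genes (94.52%) and in 19 of 19845 other protein-coding genes (0.0957%). No match was found in H1-10, H1-7, H1-8 and H2BC12L. The commonest form was shared by 40 genes of the H1, H2A, H2B and H3 families, while 10 H4 genes shared another form. Read on the coding strand of GRCh38, with the stem-loop in capitals and 5 bases on either side in lower case, the sites of the genes that the results turn on were as follows.
H1-4 (chr6:26157095-26157110, plus strand): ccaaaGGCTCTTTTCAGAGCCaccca
H2AC6 (chr6:26124669-26124684, plus strand): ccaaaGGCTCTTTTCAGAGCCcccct
H2BC4 (chr6:26123472-26123487, minus strand): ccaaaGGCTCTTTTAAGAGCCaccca
H2BC12 (chr6:27146366-27146381, minus strand): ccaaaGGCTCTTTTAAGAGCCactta
H2BC21 (chr1:149886188-149886203, minus strand): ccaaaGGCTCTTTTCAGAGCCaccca
H3C6 (chr6:26225596-26225611, plus strand): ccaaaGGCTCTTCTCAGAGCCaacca
H4C14 (chr1:149833032-149833047, plus strand): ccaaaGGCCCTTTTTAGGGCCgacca

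The annotated end of 17 of the 69 genes with a stem-loop lay more than 100 bases beyond it, and that of the other 52 lay at the stem-loop. Among the tested genes, 15 had the longer end, 20 ended at the stem-loop and 1 (H1-10) had no match to it. Of the 35 genes that had a row and were not tested, 30 ended at the stem-loop. By level, 9 of the same 35 had no count in any library, and the other 26 did not exceed 12 counts in any library. A count of 0 allows up to 3 counts, which corresponded to 0.0485 to 0.0589 CPM (counts scaled to the size of the library) depending on the library and covers counting error only.

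Summed over these 71 genes, the clustered histone genes took between 0.0168% and 0.0260% of the counts of a library. H1-10 made up 53.3% to 63.7% of that sum. Per length, as CPM per kilobase of annotated exon (RPKM) in untreated cells, the order of levels was H1-10 (88.5), H2BC12 (39.0), H1-2 (12.7), H2AC6 (10.6), H2BC5 (9.79) and H2AC11 (6.03), and every other tested gene was at 2.31 or less. Where a gene has a long annotated form, this value depends on how much of that length is transcribed. The counts of these 71 clustered genes thus came mainly from H1-10. Other members such as the germ cell genes H1-7, H2AC1 and H2BC1 were listed at 0 counts in all 8 libraries. Histone genes outside the rule are not in this sum, and the replication-independent list described below summed to 1689 CPM in untreated cells, against 134 CPM for H1-10.

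Indisulam lowered H2AC6, H2BC4, H2BC26 and H4C14 and raised H2BC21 and H3C6, while the abundant members H2BC12, H1-2 and H2BC5 were not called. Against untreated cells, 2 of the 36 tested genes were higher and 6 were lower at an adjusted p under 0.05 (quasi-likelihood test of edgeR, with p-values adjusted by the method of Benjamini and Hochberg over all tested genes). Over all tested genes, 20.1% were called higher and 23.5% lower. The median log2 fold change of the 36 genes was -0.12, and that of all tested genes was -0.00. A share of called genes this close to, or below, the background is not a result about the histone genes as a group, and the account below is of single genes.

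H1-10 (ENSG00000184897, chromosome 3, 129314771 to 129316286) encodes a linker histone that is not tied to replication. It was at 140 and 128 CPM in untreated cells and at 89.7 and 120 with indisulam, so that the indisulam libraries lay below both untreated ones but differed from each other. The log2 fold change was -0.36 (SE 0.112, adjusted p = 0.0189). The call was lost without indisulam replicate 1, where the log2 fold change was -0.17 (adjusted p = 0.188), and without untreated replicate 1 (-0.29, adjusted p = 0.117), as well as with DESeq2 (-0.35, adjusted p = 0.133). The antisense gene H1-10-AS1 overlaps H1-10 and rose with indisulam by 0.49 (adjusted p = 0.00615), and the strand setting of the counting is not given in the sources used here.

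Of the replication-dependent genes, H2AC6 (ENSG00000180573, chromosome 6, 26124145 to 26139116) had the most counts among those that fell. Its counts were 1070 and 1074 in untreated cells, 432 and 408 with indisulam, 1228 and 1075 with SPHINX31, and 386 and 457 with the combination. Both groups given indisulam lay below both groups without it, with no overlap. The log2 fold change with indisulam was -1.20 (SE 0.108, adjusted p = 1.63e-06). The annotated end of H2AC6 lies 14432 bases past its stem-loop. The gene ENSG00000291336 overlaps H2AC6 on the same strand, and its part in the count of H2AC6 was not tested.

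H2BC4 (ENSG00000180596) lies on the opposite strand, with a start site 246 bases from that of H2AC6, and its annotation runs from 26086317 to 26123926. It had 80 and 62 counts in untreated cells, 31 and 31 with indisulam, 52 and 74 with SPHINX31, and 20 and 29 with the combination. The libraries with indisulam were again the lower ones in every case, and the log2 fold change was -1.04 (SE 0.243, adjusted p = 0.00376). HFE, an iron-regulatory gene on the opposite strand that overlaps the long form of H2BC4, was at 49.3 ± 1.06 CPM in untreated cells and at 29.9 ± 1.41 CPM with indisulam (SD, n = 2), and fell by 0.72 (adjusted p = 5.53e-07). ENSG00000291336, which overlaps H2AC6, also overlaps H2BC4 on the opposite strand. The part of HFE or of ENSG00000291336 in the count of H2BC4 was not tested.

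H4C14 (chromosome 1, 149832657 to 149839767) had 33 and 38 counts in untreated cells and 8 and 6 with indisulam. It fell by 2.17 on the log2 scale (SE 0.390, adjusted p = 5.65e-04), the largest change among the 36 genes in this comparison. None of its 100-base windows occurs only once in the genome, since its copy H4C15 lies in the same block, so that its count is uncertain. H4C15 itself did not exceed 8 counts in any library.

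H2BC26, of the pair at 1q42, had 52 and 43 counts in untreated cells and 20 and 23 with indisulam, and fell by 0.98 (SE 0.279, adjusted p = 0.0117). This call was lost without untreated replicate 1 (-0.87, adjusted p = 0.0778) and without indisulam replicate 1 (-0.79, adjusted p = 0.0925). H2BC13, with 25 and 17 counts falling to 8 and 10, passed narrowly at -1.06 (SE 0.386, adjusted p = 0.0404). It was no longer called in 7 of the 16 other settings that gave a value, among them those without untreated replicate 1 (-0.78, adjusted p = 0.247), indisulam replicate 1 (-0.81, adjusted p = 0.220) and indisulam replicate 2 (-1.31, adjusted p = 0.0564).

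Of the genes that rose, H2BC21 (ENSG00000184678, chromosome 1, 149884459 to 149886682) is a single-exon gene whose annotated end lies 1729 bases past the stem-loop. It had 4.42 and 4.33 CPM in untreated cells, 6.14 and 6.36 with indisulam, 4.74 and 3.97 with SPHINX31, and 7.57 and 7.08 with the combination. With indisulam it rose by 0.51 (SE 0.107, adjusted p = 0.00170).

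H3C6 (ENSG00000274750, chromosome 6, 26224199 to 26227473) encodes a canonical histone H3. It was at 2.94 and 2.55 CPM in untreated cells, 4.18 and 4.57 with indisulam, 2.16 and 2.46 with SPHINX31, and 3.48 and 3.44 with the combination. With indisulam it rose by 0.67 (SE 0.125, adjusted p = 7.58e-04). All libraries given indisulam lay above all those without it for both H2BC21 and H3C6, the reverse of H2AC6 and H2BC4.

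For members with many counts that were not called, the confidence interval bounds the change, within the spread between libraries and not between independent treatments. H2BC12, the most abundant core histone gene per length, had 18.4 to 20.2 CPM in untreated cells and 18.0 to 20.3 with indisulam, and the 95% confidence interval of its log2 fold change was -0.18 to 0.16. For H1-2 the interval was -0.37 to 0.06, for H2BC5 -0.29 to 0.10 and for H2AC11 -0.06 to 0.48. H1-5 and H2AC12 had 13 counts or fewer in every library, with intervals of -2.16 to 0.62 and -1.99 to 0.97, so that differences of the size seen in H2AC6 were not detectable in them at this depth.

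**Figure D1:**
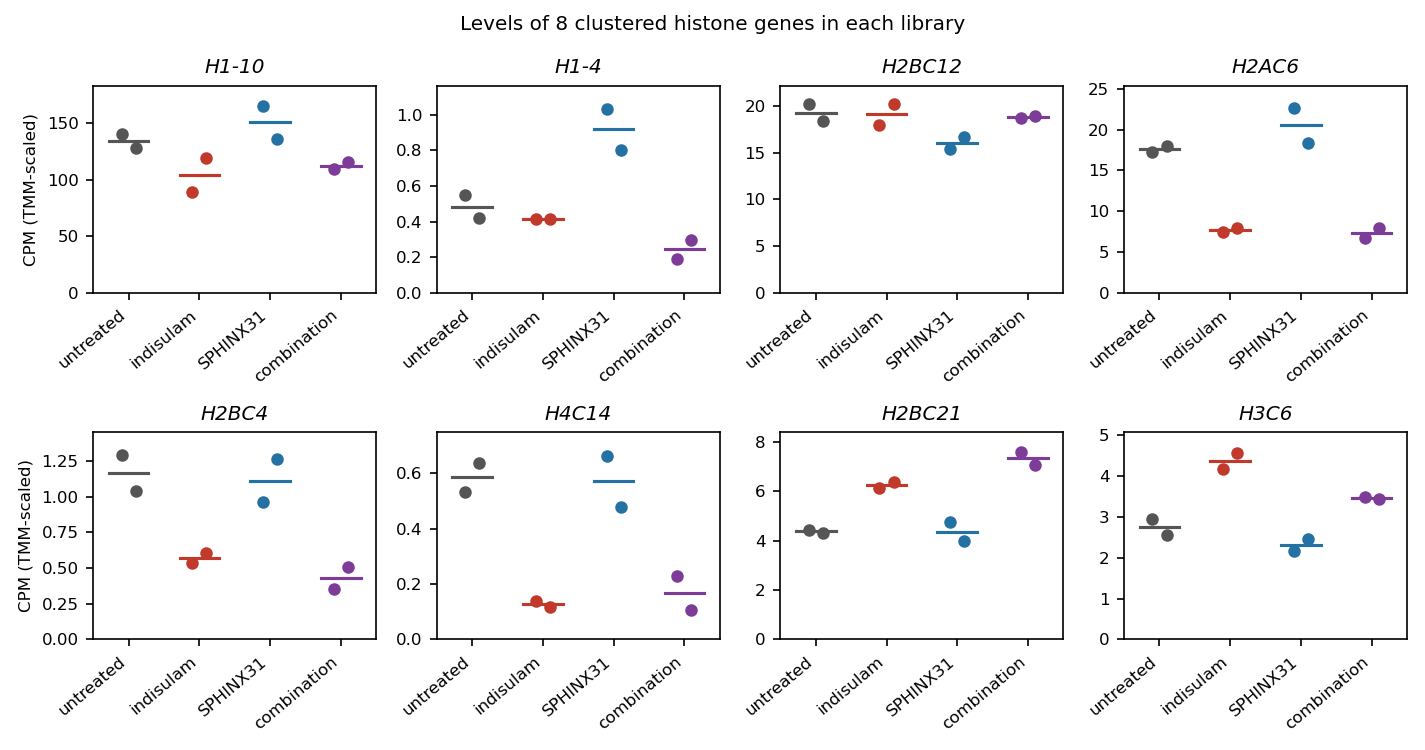
Level of 8 clustered histone genes, in CPM from TMM-scaled library sizes (vertical axes from 0, a separate scale per gene), in the 4 groups. Points are the 2 libraries of a group and horizontal lines their mean. H2AC6, H2BC4 and H4C14 are low in both groups given indisulam, H2BC21 and H3C6 are high in both, and H1-4 is highest with SPHINX31 and lowest with the combination.

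SPHINX31 raised H1-4, and no member was called lower. Against untreated cells, 1 of the 36 genes was higher and 0 lower by edgeR, where 4.94% of all tested genes were higher and 3.67% lower. At an unadjusted p under 0.05 there were 5 of the 36 members and 4501 of all 18661 tested genes, a smaller share among the members. DESeq2 called 0 members higher and 0 lower. The median log2 fold change of the members was -0.02.

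H1-4, a replication-dependent linker histone, had 34 and 25 counts in untreated cells, 24 and 21 with indisulam, 56 and 47 with SPHINX31, and 11 and 17 with the combination. SPHINX31 libraries were the highest and combination libraries the lowest, without overlap. With SPHINX31 it rose by 0.91 on the log2 scale (SE 0.253, adjusted p = 0.0408). This call was lost without untreated replicate 1 (1.12, adjusted p = 0.101), untreated replicate 2 (0.73, adjusted p = 0.256) or SPHINX31 replicate 1 (0.72, adjusted p = 0.237).

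None of the 6 genes called lower with indisulam was called with SPHINX31. The log2 fold change was -0.07 for H2BC4 (95% confidence interval -0.53 to 0.39), -0.04 for H4C14 (-0.65 to 0.57) and 0.22 for H2AC6 (0.00 to 0.43, unadjusted p = 0.0488, adjusted p = 0.205). It was -0.29 for H2BC26 (-0.83 to 0.25), -0.11 for H2BC13 (-0.83 to 0.60) and 0.17 for H1-10 (-0.07 to 0.41). Of the 13 tested H2B genes none was called. At an unadjusted p under 0.05 there were 3 of them, in both directions, beside 4501 of all 18661 tested genes. Values below 0 were found in 10 of the 13, and the share below 0 over all tested genes is not given here. These counts are thus no result about the H2B genes. H2BC12 was at 15.4 and 16.7 CPM with SPHINX31, below both untreated libraries, and its value of -0.26 (SE 0.0798, adjusted p = 0.0584) missed the threshold. H2BC5 had a value of -0.26 (SE 0.0898, adjusted p = 0.0948), and H2BC15 one of 0.50 (SE 0.205, adjusted p = 0.151).

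Under the combination, H2AC6, H2BC4, H4C14 and H2BC26 were again lower, and the linker histone genes H1-3 and H1-4 fell. Against untreated cells 3 members were higher and 7 lower, with 23.8% of all tested genes higher and 26.3% lower, and the median log2 fold change of the members was -0.11. H2AC6 fell by 1.26 on the log2 scale (SE 0.108, adjusted p = 6.55e-07), H2BC4 by 1.44 (SE 0.254, adjusted p = 3.68e-04) and H4C14 by 1.80 (SE 0.364, adjusted p = 0.00105).

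H1-4 fell by 0.98 (SE 0.327, adjusted p = 0.0230) and H1-3, a further replication-dependent linker histone, by 1.12 (SE 0.428, adjusted p = 0.0426). H1-3 had 19 and 16 counts in untreated cells and 10 and 5 with the combination. Both calls depended on single libraries: H1-4 was at -0.77 without untreated replicate 1 (adjusted p = 0.156) and -0.70 without combination replicate 1 (adjusted p = 0.168). H1-3 was at -1.02 without untreated replicate 1 (adjusted p = 0.158), -1.22 without untreated replicate 2 (adjusted p = 0.0819) and -0.71 without combination replicate 2 (adjusted p = 0.255).

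H2BC26 fell by 0.93 (adjusted p = 0.0125) and H2BC5 by 0.27 (adjusted p = 0.0210). H2BC26 was not called without untreated replicate 1 (-0.81, adjusted p = 0.0818) or combination replicate 1 (-0.67, adjusted p = 0.118). The same held for H2BC5 without untreated replicate 2 (-0.23, adjusted p = 0.139) or combination replicate 1 (-0.24, adjusted p = 0.109).

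In the other direction, H2BC21 rose by 0.74 (SE 0.105, adjusted p = 5.99e-05), and smaller increases were called for H2AC25 (0.47, adjusted p = 0.0374) and H3C6 (0.33, adjusted p = 0.0440). H2BC21 was called without each library in turn. H2AC25 was not called without any 1 of the 4 libraries compared (0.38 to 0.57, adjusted p from 0.0546 to 0.183). H3C6 was not called without untreated replicate 2 (0.23, adjusted p = 0.274), combination replicate 1 (0.33, adjusted p = 0.116) or combination replicate 2 (0.34, adjusted p = 0.109).

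**Figure D2:**
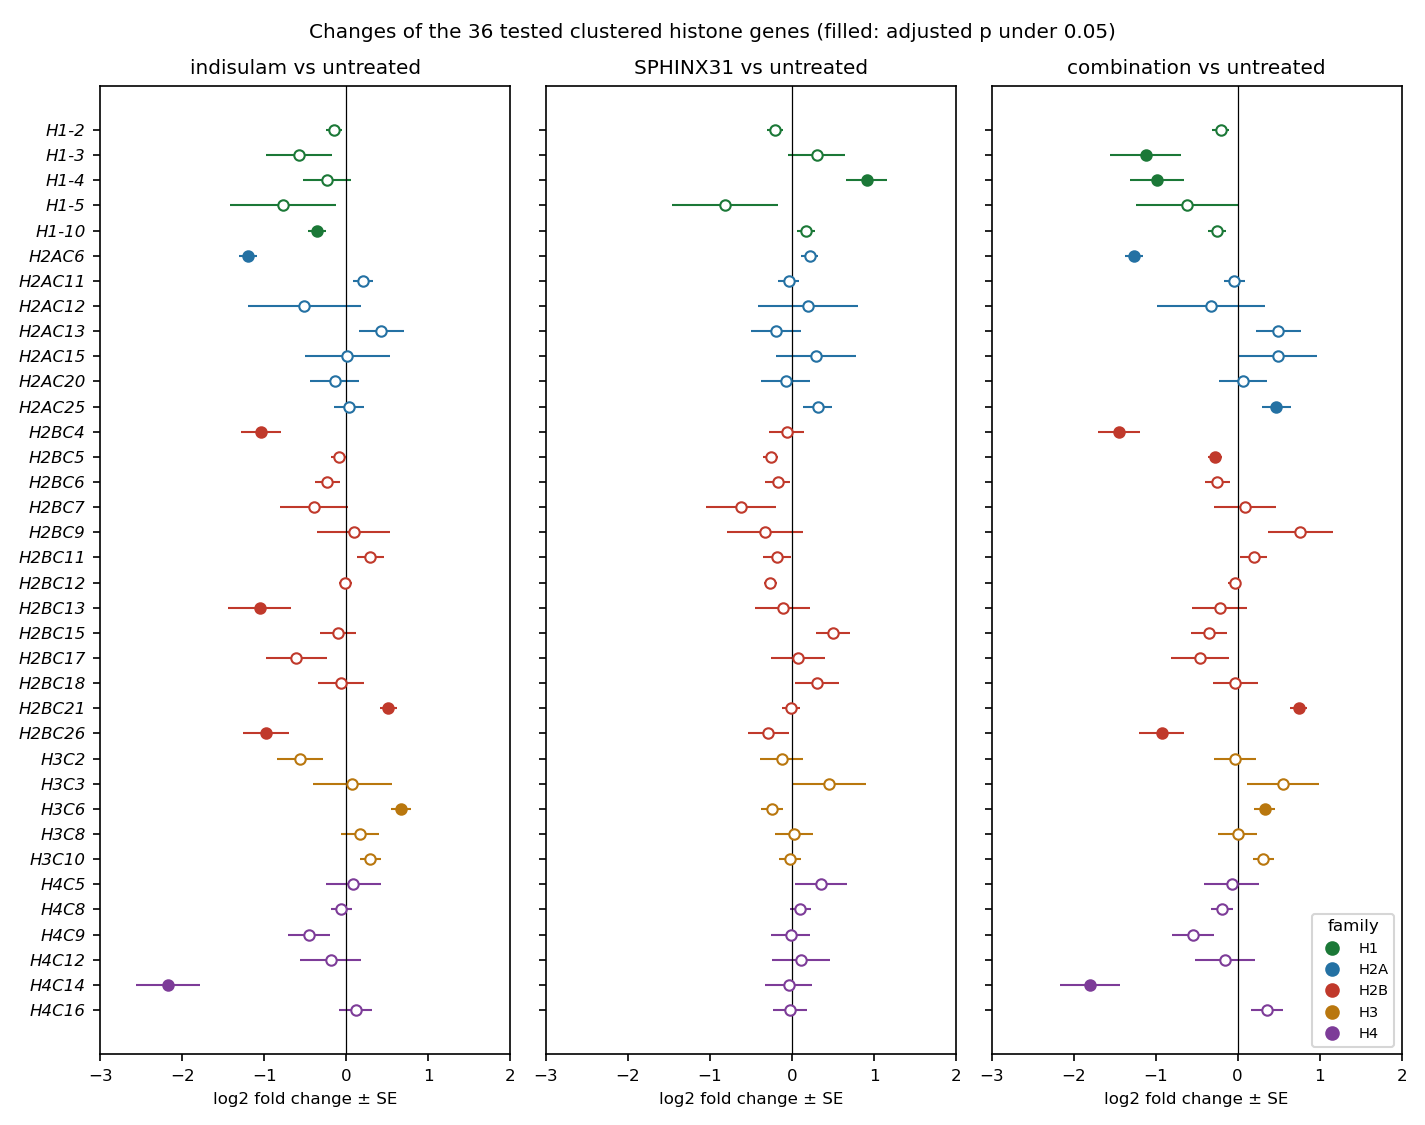
Log2 fold change (horizontal axes) against untreated cells of the 36 tested clustered histone genes for each treatment, by family. Points are edgeR estimates with bars of 1 standard error, filled where the adjusted p is under 0.05. H2AC6, H2BC4 and H4C14 are filled on the negative side with indisulam and with the combination, and with SPHINX31 the one filled point is H1-4, on the positive side.

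When SPHINX31 was added to indisulam, no member was called. The combination was compared with indisulam alone, and 0 members were higher and 0 lower by edgeR, where 3.17% of all tested genes were higher and 4.32% lower, and DESeq2 also called 0. At an unadjusted p under 0.05 there were 4 of the 36 members (H1-4, H2AC25, H2BC21 and H3C6). Of all 18661 tested genes there were 4145, a larger share. The value of H1-4 was -0.75 on the log2 scale (adjusted p = 0.221), a sign opposite to its response to SPHINX31 alone. For H2AC6 the value was -0.07, with a 95% confidence interval of -0.32 to 0.19.

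When indisulam was added to SPHINX31, 5 members were higher and 7 lower, and among all tested genes 23.4% were higher and 26.5% lower. H2AC6 fell by 1.48 (SE 0.108, adjusted p = 1.60e-07), H2BC4 by 1.38 (SE 0.259, adjusted p = 6.33e-04) and H4C14 by 1.76 (SE 0.370, adjusted p = 0.00143). H1-4 fell by 1.89 (SE 0.294, adjusted p = 1.38e-04), from 56 and 47 counts to 11 and 17, and here the call held with each library left out. H1-3 fell by 1.42 (adjusted p = 0.0117), H2BC15 by 0.85 (adjusted p = 0.00500) and H1-10 by 0.42 (adjusted p = 0.00669).

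These last 3 calls each rested on single libraries. H1-3 was not called without SPHINX31 replicate 1 (-1.12, adjusted p = 0.0956) or combination replicate 2 (-1.01, adjusted p = 0.1002). H2BC15 was not called without combination replicate 2 (-0.58, adjusted p = 0.0689), and H1-10 was not called without SPHINX31 replicate 1 (-0.26, adjusted p = 0.110) or combination replicate 1 (-0.37, adjusted p = 0.0793).

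H2BC21 rose by 0.75 (SE 0.106, adjusted p = 6.22e-05) and H3C6 by 0.58 (SE 0.132, adjusted p = 0.00251), and both calls held with each library left out. H2BC9 (1.09, adjusted p = 0.0455), H3C10 (0.34, adjusted p = 0.0447) and H2BC12 (0.23, adjusted p = 0.0290) were also called higher. H2BC9 was not called without SPHINX31 replicate 1 (0.92, adjusted p = 0.176), SPHINX31 replicate 2 (1.32, adjusted p = 0.0824) or combination replicate 1 (0.80, adjusted p = 0.247), and its counts were 7 and 10 with SPHINX31 and 22 and 15 with the combination. H2BC12 was not called without SPHINX31 replicate 1 (0.18, adjusted p = 0.139), combination replicate 1 (0.25, adjusted p = 0.0736) or combination replicate 2 (0.22, adjusted p = 0.0998).

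H3C10 was not called without either untreated library (0.34 in both, adjusted p = 0.0609 and 0.0606), SPHINX31 replicate 2 (0.26, adjusted p = 0.203), combination replicate 1 (0.32, adjusted p = 0.140) or combination replicate 2 (0.37, adjusted p = 0.0886).

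The response to indisulam could thus be read in separate libraries, without SPHINX31 and in its presence. The sign was the same in 29 of the 36 genes (80.6%), and in 84.4% of all tested genes. Of the 6 genes lower with indisulam alone, 4 were also lower when it was added to SPHINX31 (H1-10, H2AC6, H2BC4 and H4C14), which is 4 of the 7 called there, and both genes that were higher (H2BC21 and H3C6) were higher there too, which is 2 of the 5 called there. Over all tested genes, 84.9% of those lower with indisulam alone were also lower when it was added to SPHINX31 (75.3% of those called there), and 81.1% of those higher were also higher (69.8%), so that the members' counts are not set apart from the background. Pearson's r between the log2 fold changes was 0.68 across the 36 genes and Spearman's rho 0.69, against 0.85 and 0.83 over all tested genes. These are a description, since the genes share libraries within each comparison and differ widely in counts. For SPHINX31 without and with indisulam, the sign was the same in 17 of the 36 genes (47.2%), and in 66.9% of all tested genes. Among the 13 members with a mean of at least 100 counts it was the same in 9 (69.2%).

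**Figure D3:**
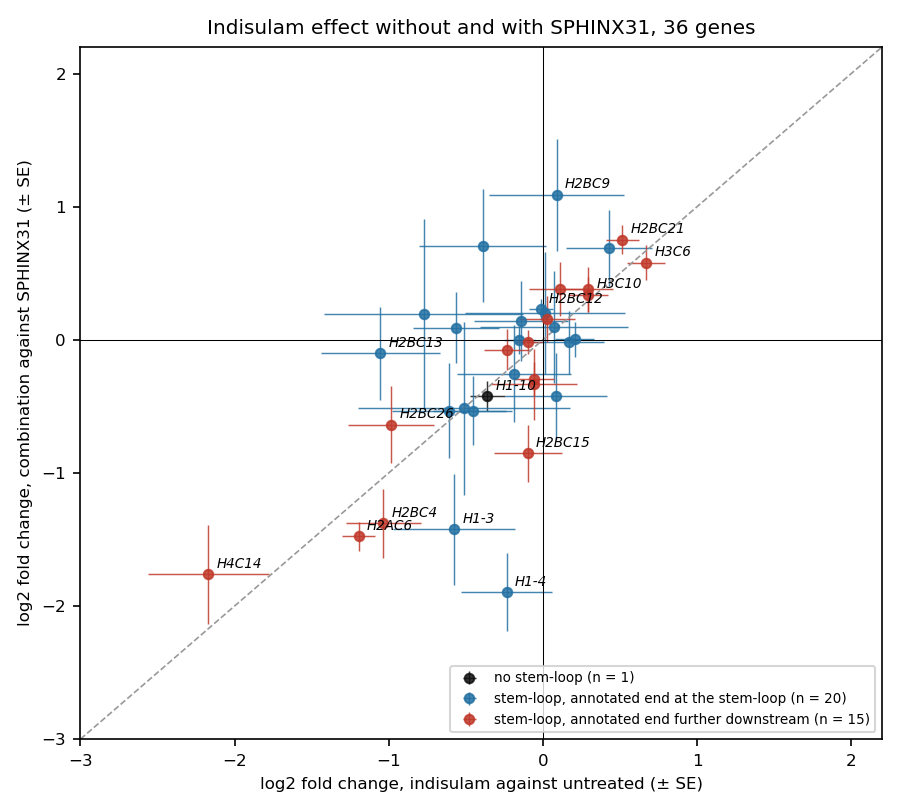
Log2 fold change of 36 clustered histone genes for indisulam against untreated cells (horizontal) and for the combination against SPHINX31 (vertical), with bars of 1 standard error; these comparisons share no library. Colours give the annotated end of the gene, the dashed line marks equal change, and genes called in either comparison are named. H2AC6, H2BC4 and H4C14 lie at the lower left near the line, H2BC21 and H3C6 at the upper right, and H1-4 lies below it, at -0.23 and -1.89.

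Whether the treatments acted together on any of these genes beyond the sum of their log2 fold changes was tested as an interaction. No member was called by edgeR, and 0% of all tested genes were called. At an unadjusted p under 0.05 there were 3 members (8.33% of 36), against 8.49% of all tested genes, and DESeq2 called 0 members and 32 genes in all. The members were H1-4 (-1.66, SE 0.427, unadjusted p = 0.00182, adjusted p = 0.348), H2BC15 (-0.75, SE 0.309, unadjusted p = 0.0298) and H2BC12 (0.24, SE 0.113, unadjusted p = 0.0494).

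By family, the sums of CPM moved in different directions. The 6 H1 genes with a stem-loop and a row summed to 10.3 ± 0.252 CPM in untreated cells, 9.11 ± 0.487 with indisulam, 9.47 ± 1.48 with SPHINX31 and 8.55 ± 0.412 with the combination (SD, n = 2). The H2A sum was 25.8 ± 0.247 CPM in untreated cells and 16.6 ± 2.18 with indisulam (SD, n = 2). H2AC6, the most abundant gene in it, went from 17.7 ± 0.494 to 7.72 ± 0.409 CPM (SD, n = 2). The fall of the H2A sum was thus no larger than that of H2AC6 alone. The H2B sum hardly differed, with 41.6 ± 0.493 CPM in untreated and 41.6 ± 2.97 in indisulam-treated cells (SD, n = 2), and it held called members of both directions beside the more abundant H2BC12. The H3 sum was 7.59 ± 0.518 CPM in untreated and 9.70 ± 0.879 with indisulam (SD, n = 2), and the H4 sum 6.62 ± 0.249 and 5.73 ± 0.386 (SD, n = 2). No test was made on these sums.

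The called members were also counted by their annotated end. Of the 15 tested genes with the longer end, 2 were higher (13.3%) and 4 lower (26.7%) with indisulam, against 20.1% and 23.5% of all tested genes, so that these counts are no result about the longer end. Of the 20 that end at the stem-loop, 0 were higher and 1 (H2BC13) was lower, and the tested gene without it (H1-10) was lower. With the combination the numbers were 3 higher and 5 lower of 15, 0 higher and 2 lower of 20, and H1-10 was not called. The shares of all tested genes with the combination were 23.8% higher and 26.3% lower. The combination counts are thus no result about the longer end either. The genes that end at the stem-loop had fewer counts, and the median standard error of their log2 fold change with indisulam was 0.350 against 0.162 for those with the longer end, so that a larger change was needed to call them. In CPM, the 52 genes ending at the stem-loop, 50 of which had a row, summed to 39.4 ± 1.72 in untreated cells and 37.8 ± 2.79 with indisulam (SD, n = 2), while the 17 with the longer end summed to 52.5 ± 0.948 and 44.9 ± 3.33 (SD, n = 2). H2AC6, 1 of the 17, went from 17.7 ± 0.494 to 7.72 ± 0.409 CPM (SD, n = 2), a larger fall than that of their sum. The difference between the genes ending at the stem-loop and those with the longer end was not tested.

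Many H2A and H2B genes lie as pairs that are transcribed away from a shared stretch of DNA. There were 13 pairs of members on opposite strands with start sites within 1000 bases, and both genes were tested in 7 of them. H2AC6 and H2BC4 fell together, as given above. With indisulam, H2AC11 and H2BC11 were at 0.21 and 0.29, H2BC15 and H2AC15 at -0.10 and 0.01, and H2AC12 and H2BC12 at -0.51 and -0.01. H2AC13 and H2BC13 were at 0.43 and -1.06. The pair H2AC20 and H2BC21 was at -0.14 and 0.51, and H2BC26 and H2AC25 at -0.98 and 0.03. With the combination, the latter pair was called in opposite directions, at -0.93 and 0.47. The values of neighbours lay close together in some pairs and apart in others, and the difference within a pair was not tested.

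The promoters of the pair H2AC6 and H2BC4 and of H2BC21 are shown because these genes moved in opposite directions with indisulam, and that of H1-4 because it differed most between SPHINX31 and the combination among the H1 genes. They were taken from RefSeq on GRCh38.p14 and run from 250 bases before to 50 bases after the start, and capitals mark CCAAT, the motif TATAAA, the motif ATTTGCAT (an octamer recognised by POU2F1) and AAACACA (found in H1 promoters), each on either strand. The H2AC6 window covers most of that of H2BC4.
H2AC6 (chr6:26123922-26124221, plus strand): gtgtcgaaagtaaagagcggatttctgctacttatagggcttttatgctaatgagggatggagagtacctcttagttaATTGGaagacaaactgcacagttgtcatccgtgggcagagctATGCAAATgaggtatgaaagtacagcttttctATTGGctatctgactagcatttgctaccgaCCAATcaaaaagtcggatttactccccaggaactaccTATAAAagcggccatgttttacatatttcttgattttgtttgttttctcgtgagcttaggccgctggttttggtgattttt
H2BC21 (chr1:149886633-149886932, minus strand): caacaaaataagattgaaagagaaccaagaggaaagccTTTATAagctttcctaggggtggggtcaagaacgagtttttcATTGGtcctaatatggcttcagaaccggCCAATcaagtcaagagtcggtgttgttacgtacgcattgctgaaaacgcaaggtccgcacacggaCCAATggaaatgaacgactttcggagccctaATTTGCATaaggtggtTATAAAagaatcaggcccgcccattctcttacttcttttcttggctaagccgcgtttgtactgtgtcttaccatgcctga
H1-4 (chr6:26156079-26156378, plus strand): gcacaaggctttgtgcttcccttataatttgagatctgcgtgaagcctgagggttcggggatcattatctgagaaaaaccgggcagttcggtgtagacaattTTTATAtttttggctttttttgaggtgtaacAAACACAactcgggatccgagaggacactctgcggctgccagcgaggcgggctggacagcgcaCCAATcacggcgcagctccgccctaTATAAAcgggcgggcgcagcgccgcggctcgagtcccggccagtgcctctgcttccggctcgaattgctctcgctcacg

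H2AC6 and H2BC21 each held 3 CCAAT and 1 ATTTGCAT, and H1-4 held 1 CCAAT and 1 AAACACA. Over the 72 windows found for 67 of the members, CCAAT was present in 83.3% and TATAAA in 63.9%, against 34.7% and 9.27% of 21541 windows of other protein-coding genes. ATTTGCAT was in 11 of 16 H2A and 15 of 20 H2B windows and in 1.54% of the other genes. AAACACA was in 7 of 10 H1 windows and in 4.38% of the other genes. CCAAT was in 3 of 13 H4 windows, and the H4C14 window held none of these motifs. A match in these windows is a description and not a site of binding.

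Genes around the clustered histones were taken from lists of known functions. Among all tested genes, 20.1% were higher and 23.5% lower with indisulam, and 4.94% and 3.67% with SPHINX31. With the combination the shares were 23.8% and 26.3%. The counts of each list below are to be read beside these shares, and no list was tested against them. Of 9 tested genes listed as replication-independent histones, 1 was higher and 3 were lower with indisulam, and 1 and 5 with the combination. This list took variants made outside S phase or with a polyadenylated mRNA, and lone histone genes outside the symbol rule. H3-3B, one of the genes for histone H3.3, fell by 0.47 (adjusted p = 6.20e-06) with indisulam, whereas H3-3A, which encodes the same protein, rose by 0.15. H2AZ1, the histone H2A.Z, fell by 0.15 with indisulam, 0.21 with SPHINX31 and 0.35 with the combination. H2AX, which carries a stem-loop as well as a polyadenylated form, was not called, at -0.01, -0.10 and -0.23.

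Of 32 tested genes for histone transcription and 3′ end processing, 12 were higher and 3 lower with indisulam, 1 and 3 with SPHINX31, and 12 and 5 with the combination. SLBP, which binds the stem-loop, was not called at 0.05, -0.15 and -0.07, nor was CASP8AP2, a component of the histone locus body, at 0.19, -0.18 and 0.11. NPAT, the coactivator of histone transcription, had -0.04 with indisulam and fell by 0.26 with the combination. LSM11, of the U7 particle that cuts histone pre-mRNA, rose by 0.39 with indisulam and 0.58 with the combination, and SNRPD3 by 0.51 and 0.53. CSTF2, a cleavage factor, fell by 0.65 and 0.95, and NCBP1, of the cap-binding complex, by 0.72 and 0.97.

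Of 27 tested histone chaperones and related genes, 5 were higher and 5 lower with indisulam, 1 and 5 with SPHINX31, and 1 and 10 with the combination. ASF1B, which hands new H3 and H4 to CAF-1, fell by 0.60, 0.24 and 0.99 in that order. CHAF1A, the large subunit of CAF-1, was not called at 0.07, -0.18 and -0.08.

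Since histone mRNA is tied to S phase, 45 genes of S phase and DNA replication were counted too: 13 were higher and 13 lower with indisulam, 0 and 16 with SPHINX31, and 4 and 20 with the combination. PCNA was at 0.11, -0.26 and -0.00 and called with SPHINX31, and CCNE2 fell by 0.38, 0.49 and 0.58. RRM2, a subunit of ribonucleotide reductase, fell by 0.35 with indisulam and by 1.01 with the combination, and POLA1 by 1.24 and 1.63. Of 24 genes of G2 and mitosis, 7 were higher and 5 lower with indisulam, 0 and 12 with SPHINX31, and 1 and 15 with the combination. When SPHINX31 was added to indisulam, 10 S phase genes and 20 of G2 and mitosis were lower and none of either list was higher. Of the clustered histone genes 0 were lower, where 4.32% of all tested genes were, and the median standard error was 0.280 for these genes against 0.0706 and 0.0636 for the lists of S phase and of G2 and mitosis. The lists were not tested against each other.

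Among 20 genes of cell cycle exit and p53 targets, 5 were higher and 7 lower with indisulam, 6 and 1 with SPHINX31, and 9 and 3 with the combination. CDKN1A, which inhibits cyclin-dependent kinases, rose by 0.44 with SPHINX31 and 0.55 with the combination and was at 0.11 with indisulam. How far the cell cycle genes and the histone genes moved together was not tested.

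Other genes without introns and other short genes served as a comparison, because most clustered histone genes share these features: in 56 of the 73 every annotated transcript has 1 exon. Of 221 tested single-exon genes outside the histones, 55 were higher and 21 lower with indisulam, with a median log2 fold change of 0.06. Of 130 short genes with at least 2 exons and at most 1000 bases, 23 were higher and 14 lower, with a median of 0.03. Of the 36 members, 2 were higher and 6 lower, with a median of -0.12. The 23 of them with 1 exon in every annotated transcript had 1 higher and 2 lower, with a median of -0.15. The 13 with a transcript of 2 or more exons had 1 higher and 4 lower, with a median of -0.09. Among all tested genes, 20.1% were higher and 23.5% lower. No test was made between these lists.

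**Figure D4:**
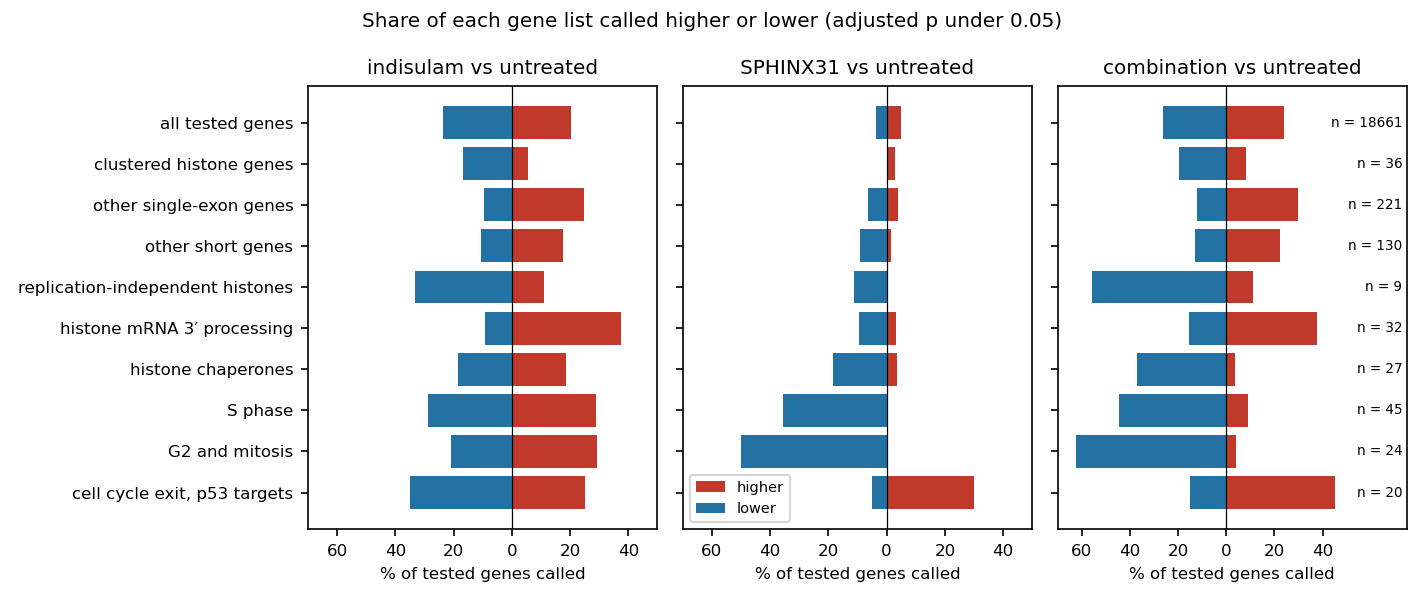
Share of the tested genes of each list called higher (right, red) or lower (left, blue) than in untreated cells at an adjusted p under 0.05 in percent, with the number of genes tested. With indisulam 2 of 36 clustered histone genes are higher and 6 lower, and with SPHINX31 the lists of S phase (16 of 45) and of G2 and mitosis (12 of 24) have genes called lower but none higher.

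RNAs that carry no poly(A) tail were counted beside the members, and their sum does not measure all untailed RNA in these libraries. Of 32 such small nuclear, nucleolar and other RNAs with a row, 10 had no count in any library and 5 were tested, of which 3 were higher and 0 lower with indisulam. All 32 summed to 32.1 to 37.0 CPM in untreated cells, 33.4 to 39.8 with indisulam, 35.2 to 46.0 with SPHINX31 and 31.99 to 33.4 with the combination, and the groups overlapped. RN7SL1, the RNA of the signal recognition particle, made up most of that sum. Without it, the other 31 summed to 4.05 to 4.28 CPM in untreated cells, 5.93 to 6.19 with indisulam, 2.97 to 4.46 with SPHINX31 and 5.44 to 5.92 with the combination. The groups given indisulam were above the others for this second sum and not for the first. The part of untailed RNA in the histone counts was not tested.

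The libraries held 51727369 to 63186989 counts on genes, with TMM factors of 0.978 to 1.02. The A549 markers KRT7, KRT8, KRT18, KRT19, EPCAM and CDH1 summed to 8496 to 9960 CPM, and 9 markers of immune, endothelial and stromal cells to 5.79 to 7.06 CPM. RBM39 rose by 1.22 with indisulam and SRPK1 fell by 0.33, neither of which measures the protein or the kinase activity that the compounds act on. Of the 73 clustered histone genes, 12 had fewer than 50% of their 100-base windows unique in the genome, 4 of them among the tested genes (H2AC13, H2BC18, H4C12 and H4C14), and reads that fit several copies equally are not in the counts.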

How the data were processed

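RNA of A549 cells was measured in 8 poly(A)-selected libraries. The deposited values are raw counts of reads per Ensembl gene, made by the authors with no normalization. Per the labels, HISAT2 2.2.1, HTSeq and GRCh38 were used, and the strand setting and annotation are not given in the sources used here. Gene names, positions and exons came from GENCODE release 44, which matched 60370 of 60624 genes, and promoters from RefSeq. H2AC18 and H2AC19 had no row under their release 44 identifiers and were not analysed here. A further gene that meets the symbol rule is not reported here and is in no count of members.

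Counts were analysed with edgeR 4.0.16 in R 4.3.3 on all 8 libraries together. Genes were kept by filterByExpr (about 0.174 CPM in at least 2 libraries, which left 18661), library sizes were scaled by TMM, and a quasi-likelihood test with 4 residual degrees of freedom was adjusted by Benjamini-Hochberg with a threshold of 0.05. The standard error is the log2 fold change divided by the root of F. A 95% interval uses the degrees of freedom of the test. The procedure was tested on simulated data, and tables were made with Python 3.11.15 and pandas 2.3.3. The depth was 51727369 to 63186989 counts on genes, which limits genes with few counts. Unassigned reads (14.0% to 17.0% of a library) stayed out of library sizes.

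The alternatives were RLE factors, total counts alone, DESeq2 1.42.0, a filter of at least 1 count or of at least 10 in every library, the groups compared alone, a replicate block, GC offsets over 50 bins, both together, an adjusted p under 0.1 and each library left out. Counting only members with at least 50% of their 100-base windows unique was added after the data were seen. The members and gene lists were chosen with earlier results of these data known. Named were the tested H1 genes, the called genes with the largest changes and the most abundant genes of each family, the members with the smallest interaction p, and fixed or strongly changed genes of the other lists. Not every such gene is printed. HFE and H1-10-AS1 were added because they overlap members.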

Additional observations from a re-analysis of the deposited data

How the results depend on the processing

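No called change of a member turned its direction in any setting. Of the 31 calls of a member in a comparison, 15 held in every setting that gave a value, among them all those of H2AC6, H2BC4, H4C14 and H2BC21. DESeq2 gave fewer calls: 3 lower with indisulam, 0 higher with SPHINX31, 3 lower with the combination, and 3 higher for the combination against SPHINX31. A filter of at least 1 count gave 1 lower with SPHINX31, 1 higher for the combination against indisulam and 1 lower in the interaction. GC offsets gave 1 lower with SPHINX31, also with the block added, and an adjusted p under 0.1 gave 2. With the replicate number as a block, 0 members were higher with SPHINX31, 1 with the combination and 3 for the combination against SPHINX31. The labels do not say that equal numbers pair libraries, and the deviations of same-numbered libraries correlated between -0.445 and 0.370 over 12004 genes, so that the numbers were not taken as pairs. The causes of these differences were not tested. The share of all tested genes called in these settings, or with 1 library left out, is not given here. The counts of members can therefore not be set against the background. Leaving out 1 library, with the lone library of a group assumed to vary like the others, gave 3 to 6 members lower with indisulam, 0 to 2 higher and 0 to 1 lower with SPHINX31, and 1 to 4 higher and 4 to 8 lower with the combination. For the combination it gave 0 to 1 higher against indisulam and 2 to 6 higher against SPHINX31. Low counts limit most genes that end at the stem-loop: 17 of the 20 tested did not exceed 56 counts in any library, while H2BC12, H1-2 and H2AC11 did.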

Other observations

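Histone pseudogenes beside the members were counted too. Of 15 with a row, 3 had enough counts to be tested, and 8 did not exceed 1 count in any library. H2BC20P (chromosome 1, 149850193 to 149850772) had 568 and 497 counts in untreated cells, 571 and 393 with indisulam, 407 and 522 with SPHINX31, and 532 and 435 with the combination. H2BC19P (chromosome 1, 149843041 to 149843533) had 351 and 362, 388 and 251, 247 and 303, and 345 and 288 in the same order. The groups overlapped or lay close together for both, and neither was called with indisulam (log2 fold changes of 0.00 and -0.01, with SE of 0.130 and 0.139). By the mean count over the 8 libraries, 3 of the 36 tested members (H1-10, H2BC12 and H2AC6) lay above H2BC20P.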
